A study of Mus musculus with 4 samples.

Results

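The nuclear genes of oxidative phosphorylation were taken by their symbols. Symbols that begin with Nduf and a, b, c, s or v (complex I), Uqcr (III), Cox4 to Cox8 (IV) or Atp5 (V) were included. For complex II only Sdha, Sdhb, Sdhc and Sdhd were taken, and Cyc1 was added for complex III. The rule found 94 of the 37981 loci that were measured, on 19 chromosomes, and used no expression value. They comprise 38 genes of complex I, 4 of complex II, 9 of complex III, 18 of complex IV, 16 of complex V, 7 assembly factors of complex I and 2 genes, Atp5s and Atp5sl, that carry an Atp5 symbol but encode no subunit. The cells were inner medullary collecting duct (IMCD) cells, profiled by RNA-Seq, which were immortalized with SV40 from C57B/l mice with floxed Tgfbr2, the gene of the TGF-β type II receptor (TβRII). Cells labeled Tgfbr2-/- were treated with an adenovirus carrying Cre (TβRII-/-), and cells labeled Tgfbr2fl/fl were left untreated (TβRII fl/fl). Each genotype was grown without serum for 4 days or in serum-replete medium, which gives 4 libraries with 1 library per condition. No test and no error can therefore be given, every difference is between 2 libraries, and both media used the same cell populations, so that the media do not replicate the deletion. Loss of TβRII cannot be told apart from exposure to virus or Cre.

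Oxidative phosphorylation couples the oxidation of nutrients to ATP production in the inner mitochondrial membrane. Complexes I and II pass electrons from NADH and succinate to coenzyme Q, complex III passes them on to cytochrome c, complex IV reduces oxygen, and complex V makes ATP from the proton gradient. Most subunits are encoded in the nucleus and a few catalytic ones in mitochondrial DNA, so that the complexes are assembled from 2 genomes. In the kidney, the proximal tubule depends heavily on this pathway, whereas the inner medulla is poorly supplied with oxygen and relies more on glycolysis.

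Levels are given in FPKM (sequenced fragments for each kilobase of a transcript, relative to the size of the library), and differences as the log2 ratio of TβRII-/- to TβRII fl/fl after adding 1 FPKM to each. Where 2 ratios or medians stand side by side, the first is without serum. The authors scaled the 2 media separately, so genotypes are compared within a medium. Tgfbr2 was at 73.7 FPKM in the TβRII-/- and 143 FPKM in the TβRII fl/fl library without serum (log2 ratio -0.94), and at 57.0 FPKM in the TβRII-/- and 163 FPKM in the TβRII fl/fl library with serum (-1.50). The value covers the whole gene and does not isolate the floxed part. The collecting duct label was only partly borne out by its markers, of which 10 of 17 reached 1 FPKM in each medium. They summed to 552 FPKM in TβRII-/- against 349.7 FPKM in TβRII fl/fl without serum, and to 799 FPKM in TβRII-/- against 498 FPKM in TβRII fl/fl with serum. Hoxb7 was between 35.1 and 54.0 FPKM in the 4 libraries, but the water channel Aqp2 was listed at 0 in all of them, and Krt8 was at 0.133 FPKM in the TβRII-/- and 142 FPKM in the TβRII fl/fl library without serum. Of 5 leukocyte markers 3 reached 1 FPKM without serum and 2 with serum, with sums of 19.4 FPKM in the TβRII-/- and 19.9 FPKM in the TβRII fl/fl library without serum and 19.96 FPKM in TβRII-/- against 12.4 FPKM in TβRII fl/fl with serum. Of 5 endothelial and 4 intercalated cell markers none reached 1 FPKM, and of 8 fibroblast markers 1 did without serum and 2 with serum, with sums of 0.765 FPKM in TβRII-/- against 3.504 FPKM in TβRII fl/fl without serum and 0.882 FPKM in TβRII-/- against 20.6 FPKM in TβRII fl/fl with serum. Summed proximal tubule markers were at 21.6 FPKM in the TβRII-/- and 53.8 FPKM in the TβRII fl/fl library without serum, and at 7.65 FPKM in TβRII-/- against 23.0 FPKM in TβRII fl/fl with serum. Aqp1 carried the lower sum, with 0.499 FPKM in TβRII-/- against 48.5 FPKM in TβRII fl/fl without serum, whereas the endocytic receptor gene Lrp2 had log2 ratios of 2.04 and 1.05 and Slc34a1 was listed at 0 in every library. The part of such differences between the populations in the results that follow was not tested.

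All 94 genes were matched to a RefSeq gene, and promoters (GRCm38.p6) were available for 76 of them. Each promoter is a window of 300 bases around a gene's start. Some genes, such as Ndufa5 and Atp5j, have 2 promoters, and a match in either was counted for the gene. The promoters were searched on both strands for motifs of factors that are known to bind promoters of respiratory genes. The GABPA (ETS) motif CCGGAAG was found at 17 of the 76 genes (22.4%) and at 9.93% of 27025 genes with a promoter in the table. The NRF1 core GCGCATGC was found at 12 genes (15.8%, against 3.05% of all genes), and the YY1 motif AAGATGGCG at 8 (10.5%, against 1.64%). At least 1 of these motifs was present at 31 of the 76 genes (40.8%), against 13.6% of all genes. The hypoxia response element ACGTG (26.3%, against 21.8%) and the E-box CACGTG, which contains ACGTG (9.21%, against 8.09%), were held by shares closer to those of all genes. The 27025 genes include genes not expressed in these cells and were not matched to the respiratory genes on level or base composition. A match is a run of letters and no evidence of binding.

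Promoters of 5 genes are shown with motif matches in capitals. Sdhb, the iron-sulfur subunit of complex II (chr4:140961021-140961320, plus strand), was among the highest ratios with serum, and its promoter holds an NRF1 core in reverse and a GABPA motif. Cox6b1 (chr7:30626065-30626364, minus strand), a ubiquitous subunit, and Cox6b2 (chr7:4753045-4753344, minus strand), its testis isoform, are shown because Cox6b2 was listed at 0 in both TβRII-/- libraries. Cox7a2 (chr9:79759804-79760103, minus strand) and Cox7a1 (chr7:30183921-30184220, plus strand), the heart and skeletal muscle isoform, are shown because Cox7a1 had the highest ratio without serum. Of these 5, Cox6b1 has a reverse GABPA motif, Cox7a1 a reverse ACGTG, and Cox6b2 and Cox7a2 none of the motifs in this window.
Sdhb: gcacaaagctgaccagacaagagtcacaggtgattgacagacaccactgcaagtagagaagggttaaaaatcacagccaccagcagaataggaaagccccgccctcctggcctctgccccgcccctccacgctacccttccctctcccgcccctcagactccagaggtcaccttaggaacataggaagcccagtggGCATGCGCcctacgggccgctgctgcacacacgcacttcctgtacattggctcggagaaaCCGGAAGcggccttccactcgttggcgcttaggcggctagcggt
Cox6b1: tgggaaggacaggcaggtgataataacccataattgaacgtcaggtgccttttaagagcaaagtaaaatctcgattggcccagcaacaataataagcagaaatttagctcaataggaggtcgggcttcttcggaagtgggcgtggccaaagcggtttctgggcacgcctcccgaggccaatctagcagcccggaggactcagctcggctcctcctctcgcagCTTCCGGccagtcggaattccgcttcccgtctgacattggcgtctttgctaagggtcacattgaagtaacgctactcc
Cox6b2: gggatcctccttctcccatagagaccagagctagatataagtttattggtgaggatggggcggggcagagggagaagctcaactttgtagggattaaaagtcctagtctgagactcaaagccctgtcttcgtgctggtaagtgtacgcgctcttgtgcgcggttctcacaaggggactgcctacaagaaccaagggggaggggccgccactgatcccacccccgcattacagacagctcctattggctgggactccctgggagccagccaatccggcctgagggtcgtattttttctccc
Cox7a2: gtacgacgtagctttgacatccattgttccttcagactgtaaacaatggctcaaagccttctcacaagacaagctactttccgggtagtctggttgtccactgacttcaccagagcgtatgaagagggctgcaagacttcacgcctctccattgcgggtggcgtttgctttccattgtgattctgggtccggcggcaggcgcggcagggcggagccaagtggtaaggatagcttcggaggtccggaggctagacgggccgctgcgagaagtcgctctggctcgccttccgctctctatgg
Cox7a1: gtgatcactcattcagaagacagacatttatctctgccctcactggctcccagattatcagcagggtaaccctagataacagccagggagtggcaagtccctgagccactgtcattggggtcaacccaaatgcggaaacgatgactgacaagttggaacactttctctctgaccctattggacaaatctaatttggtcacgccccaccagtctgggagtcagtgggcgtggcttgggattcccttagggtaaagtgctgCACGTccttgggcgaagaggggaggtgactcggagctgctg

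Genes with any of the NRF1, GABPA or YY1 motifs had a median log2 ratio of -0.02 without serum, and genes with none of them -0.04 (31 and 43 genes that passed the expression filter). With serum the median was 0.16 for genes with a motif and 0.14 for genes without. Single motifs gave other values. Genes with and without the YY1 motif had medians of -0.11 and -0.02 without serum and of 0.06 and 0.16 with serum (8 genes with the motif). Genes with and without the NRF1 core had 0.21 and 0.13 with serum (12 genes with the motif). The widest gap was that of the E-box with serum, 0.31 with and 0.15 without it (7 genes with the motif), beside 0.02 and -0.02 without serum. Of the regulators themselves, Nrf1 was at 11.3 FPKM in the TβRII-/- and 11.8 FPKM in the TβRII fl/fl library without serum, and at 18.9 FPKM in TβRII-/- against 11.5 FPKM in TβRII fl/fl with serum. Gabpa, which encodes the DNA-binding subunit of GABP, was at 25.9 FPKM in the TβRII-/- and 26.9 FPKM in the TβRII fl/fl library without serum, and at 27.1 FPKM in TβRII-/- against 28.3 FPKM in TβRII fl/fl with serum.

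The respiratory genes were among the most abundant messages of these cells. In all 4 libraries 69 of the 94 genes had at least 50 FPKM, and 73 were in the top 10% of all loci. That ranking covers all 37981 loci, of which between 19579 and 19881 were listed at 0 in each library. Of loci that passed 1 FPKM, 2713 of 12687 without serum and 2710 of 12635 with serum had at least 50 FPKM in either library. Together they summed to 14599 FPKM in the TβRII-/- and 15462 FPKM in the TβRII fl/fl library without serum, and to 15801 FPKM in TβRII-/- against 14467 FPKM in TβRII fl/fl with serum. Atp5b, the catalytic β subunit of complex V, had the highest mean level, with 924 FPKM in the TβRII-/- and 966 FPKM in the TβRII fl/fl library without serum, and 1217 FPKM in TβRII-/- against 863 FPKM in TβRII fl/fl with serum. The order of levels differed little between libraries, with rank correlations of 0.959 to 0.989 over the 87 genes that passed in both media. These share their transcript lengths and annotation, and the correlation is a description.

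A further 5 genes, Atp5l2, Cox7b2, Cox8b, Cox8c and Ndufa4l2, were listed at 0 in every library. Atp5l2, counted with complex V by its symbol, has the RefSeq symbol Atp5l2-ps, which marks a pseudogene. Cox4i2, an isoform known from lung and from hypoxic cells, stayed under 1 FPKM throughout, with 0.209 FPKM in the TβRII-/- and 0.0775 FPKM in the TβRII fl/fl library without serum and 0.184 FPKM in TβRII-/- against 0.234 FPKM in TβRII fl/fl with serum. Ratios were read where either library of a medium reached 1 FPKM, which left 88 genes without serum and 87 with serum. Cox6b2 passed through the TβRII fl/fl libraries alone and Cox6a2 through the TβRII-/- library without serum alone, so that each had to differ to be seen. The other 86 genes had at least 1 FPKM in both libraries of each medium.

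Few of these genes differed 2-fold between genotypes. Without serum 3 of 88 genes (3.41%), Cox6a2, Cox7a1 and Ndufaf6, were higher in TβRII-/- cells by 2-fold or more, as were 8.02% of 12687 loci. Cox6a2 is counted here although it passed the filter through the higher library alone. Cox6b2 was at least 2-fold lower (1.14%), as were 6.64% of loci. With serum no gene of 87 was at least 2-fold higher and 7% of 12635 loci were. Cox6b2 was again the single gene counted as lower, with the same limit (1.15%), beside 11.1% of loci. The shares of respiratory genes were below those of all loci in each direction and medium.

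The same held at a 1.5-fold limit. Without serum 3 genes were higher, beside 16.4% of loci, and 5 (Atp5g2, Atp5o, Cox6b2, Ndufb4 and Ndufb8) were lower, beside 13.7% of loci. With serum 8 genes (Atp5f1, Cox7a2, Ndufa5, Ndufaf4, Ndufs1, Sdhb, Sdhd and Uqcrb) were higher, which is 9.2% of the 87 beside 15.1% of loci. Cox6b2 alone was counted as lower, beside 20.8% of loci. The counts at this limit include Cox6a2 and Cox6b2, which passed the filter only through the higher library. Among loci of 50 FPKM or more in either library, a limit set after the values were seen, 10.9% were 2-fold higher and 5.09% lower in TβRII-/- cells without serum, and 8.67% were higher and 9.26% lower with serum. None of the 72 respiratory genes at that level without serum, and none of the 71 with serum, reached 2-fold.

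The middle of the distribution stayed near 0 without serum and lay above it with serum. Without serum the median log2 ratio of the 88 genes was -0.027, against 0.028 for all loci, with 39 genes above 0 and 49 below. With serum the median was 0.140, against -0.029 for all loci, with 58 genes above 0 and 29 below. Among all loci with at least 50 FPKM the median was 0.143 without serum and 0.135 with serum, and that of the respiratory genes at this level was -0.044 and 0.130. These loci share a lower limit with the respiratory genes and were not matched to them on level. The quartiles of the respiratory genes spanned 0.431 without serum and 0.421 with serum, compared with 0.696 and 0.823 for all loci.

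**Figure D1:**
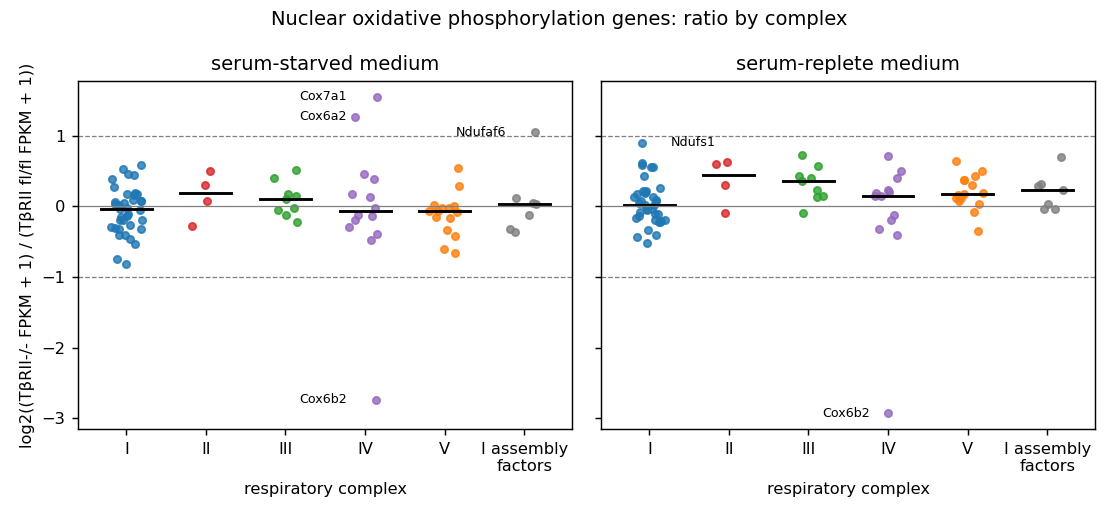
Log2 ratio of TβRII-/- to TβRII fl/fl for each gene that passed the filter, by complex, in serum-starved (left) and serum-replete medium (right). Points are genes, bars are medians and dashed lines mark 2-fold; most genes lie between the dashed lines, complexes II and III have the highest medians in both media, and the position of Cox6b2, listed at 0 in TβRII-/- cells, depends on the added 1 FPKM.

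Complex I, the NADH dehydrogenase, had a median log2 ratio of -0.038 without serum and 0.021 with serum over 37 genes (-0.154 without serum with transcripts of at least 800 bp), and none of these reached 2-fold in either medium. Ndufa4 was the most abundant gene of this group, with 424 FPKM in the TβRII-/- and 486 FPKM in the TβRII fl/fl library without serum, and 450 FPKM in TβRII-/- against 412 FPKM in TβRII fl/fl with serum. It is named for complex I, although the protein is now assigned to complex IV. Its relative Ndufa4l2, a hypoxia-induced gene, is the one of the 38 that was listed at 0. The 7 core subunits had medians of -0.258 without serum and -0.040 with serum, and the 30 expressed accessory subunits had -0.005 and 0.031, a split made after the values were seen.

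Ndufs1, the largest core subunit of complex I, carries iron-sulfur clusters and had the highest ratio of the complex with serum. It was at 47.5 FPKM in the TβRII-/- and 25.01 FPKM in the TβRII fl/fl library with serum (log2 ratio 0.90), and at 39.2 FPKM in TβRII-/- against 28.3 FPKM in TβRII fl/fl without serum (0.46), in a table region that spans 6.57 times the RefSeq gene. The core subunits Ndufs8 and Ndufv1 had the opposite sign without serum. Ndufs8 was at 77.7 FPKM in the TβRII-/- and 113 FPKM in the TβRII fl/fl library (-0.54), and Ndufv1 at 73.8 FPKM in TβRII-/- against 102 FPKM in TβRII fl/fl (-0.46). The core of complex I thus held ratios of both signs in these libraries.

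Among the accessory subunits, Ndufc1 had the highest ratio without serum and kept its size with serum. It was at 223 FPKM in the TβRII-/- and 149 FPKM in the TβRII fl/fl library without serum (0.58), and at 214 FPKM in TβRII-/- against 143 FPKM in TβRII fl/fl with serum (0.58). Ndufb3 (0.52 and 0.55) and Ndufb6 (0.44 and 0.56), also subunits of the membrane arm, had ratios above 0 in both media. Ndufb8 had the lowest ratio without serum, with 232 FPKM in the TβRII-/- and 409 FPKM in the TβRII fl/fl library (-0.82), and was at 290 FPKM in TβRII-/- against 330 FPKM in TβRII fl/fl with serum (-0.19). Its locus joins Ndufb8 with Sec31b and Gm20538, so that the value is not that of Ndufb8 alone. Ndufb4, which has a locus of its own, was at 24.6 FPKM in the TβRII-/- and 41.9 FPKM in the TβRII fl/fl library without serum (-0.74) and at 34.6 FPKM in TβRII-/- against 40.5 FPKM in TβRII fl/fl with serum (-0.22). With serum the lowest ratio was that of Ndufa6, at 96.3 FPKM in the TβRII-/- and 138 FPKM in the TβRII fl/fl library (-0.52).

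The complex I assembly factors, which are not part of the finished enzyme, had mean levels of 10.3 to 23.5 FPKM, below the median of 99.0 FPKM for the complex I subunits. Ndufaf6 was the one that passed 2-fold, at 13.4 FPKM in the TβRII-/- and 5.95 FPKM in the TβRII fl/fl library without serum (1.05), and it was at 11.96 FPKM in TβRII-/- against 10.03 FPKM in TβRII fl/fl with serum (0.23). Its ratio was 0.97 when the libraries were scaled to a common sum, just under the limit. Ndufaf4 stood highest with serum, at 23.6 FPKM in the TβRII-/- and 14.2 FPKM in the TβRII fl/fl library (0.70), and was at 13.1 FPKM in TβRII-/- against 12.6 FPKM in TβRII fl/fl without serum (0.05). Ndufaf2 and Ndufaf3 were within 1.5-fold in both media. Without serum Ndufaf2 was at 19.8 FPKM in the TβRII-/- and 21.7 FPKM in the TβRII fl/fl library, and Ndufaf3 at 16.7 FPKM in TβRII-/- against 15.3 FPKM in TβRII fl/fl.

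Complex II, succinate dehydrogenase, is encoded entirely in the nucleus and also serves the citric acid cycle. It had the highest median ratio of the complexes, 0.19 without serum and 0.45 with serum, over 4 genes. Sdhb was at 80.3 FPKM in the TβRII-/- and 65.2 FPKM in the TβRII fl/fl library without serum (0.30), and at 103 FPKM in TβRII-/- against 66.1 FPKM in TβRII fl/fl with serum (0.63). Sdhd, a membrane anchor, was at 124 FPKM in the TβRII-/- and 87.5 FPKM in the TβRII fl/fl library without serum (0.50), and at 141 FPKM in TβRII-/- against 93.0 FPKM in TβRII fl/fl with serum (0.60). Ratios of both were above 0 in each medium, as were those of the flavoprotein gene Sdha (0.08 and 0.29). Sdhc, the other anchor and the most abundant of the 4, was at 227 FPKM in the TβRII-/- and 276 FPKM in the TβRII fl/fl library without serum (-0.28) and at 210 FPKM in TβRII-/- against 224 FPKM in TβRII fl/fl with serum (-0.09).

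Complex III, the cytochrome bc1 complex, had medians of 0.106 without serum and 0.356 with serum over 9 genes, of which 5 lay above 0 without serum and 8 with serum. Uqcrq, a small accessory subunit, was the most abundant and had the highest ratio without serum, with 596 FPKM in the TβRII-/- and 418 FPKM in the TβRII fl/fl library (0.51), beside 450 FPKM in TβRII-/- against 411 FPKM in TβRII fl/fl with serum (0.13). Uqcrb was highest with serum, at 157 FPKM in the TβRII-/- and 94.3 FPKM in the TβRII fl/fl library (0.73), and was at 116 FPKM in TβRII-/- against 105 FPKM in TβRII fl/fl without serum (0.14). Its reported locus spans 20.5 times the RefSeq gene. Uqcrh, the hinge protein, had similar ratios in both media (0.40 and 0.57). Cyc1, cytochrome c1, changed sign between media, with 99.0 FPKM in the TβRII-/- and 115 FPKM in the TβRII fl/fl library without serum (-0.22) and 171 FPKM in TβRII-/- against 126 FPKM in TβRII fl/fl with serum (0.43). Uqcr11 was lowest with serum, at 204 FPKM in the TβRII-/- and 219 FPKM in the TβRII fl/fl library (-0.10), and was at 197 FPKM in TβRII-/- against 204 FPKM in TβRII fl/fl without serum (-0.05).

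Complex IV, cytochrome c oxidase, held the largest ratios without serum, those of Cox6b2, Cox7a1 and Cox6a2, which are isoforms expressed at low levels. Cox6b2 and Cox6a2 passed the filter only through the library in which they were higher, so that each had to differ to be seen. Of these genes, only Cox7a1 had at least 1 FPKM in both libraries. Its median was -0.071 without serum over 14 genes and 0.148 with serum over 13. The value with serum was -0.117 when only genes with transcripts of at least 800 bp were kept. As a mean it was -0.111, which includes Cox6b2 at -2.93, a ratio that depends on the added 1 FPKM. Cox4i1, a regulatory subunit, was the most abundant, with 666 FPKM in the TβRII-/- and 924 FPKM in the TβRII fl/fl library without serum (-0.47) and 609 FPKM in TβRII-/- against 694 FPKM in TβRII fl/fl with serum (-0.19). The table gives Cox4i1 a region 741 times as long as the RefSeq gene, so that its coordinates are not those of the gene. Cox7a2l, which links complexes III and IV in supercomplexes, was at 185 FPKM in the TβRII-/- and 201 FPKM in the TβRII fl/fl library without serum (-0.12), and at 106 FPKM in TβRII-/- against 141 FPKM in TβRII fl/fl with serum (-0.41). Cox8a (-0.14 and 0.21), Cox7b (-0.30 and 0.14) and Cox6a1 (-0.02 and 0.23), the common forms of their subunits, were below 0 without serum and above it with serum.

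Cox6b2 lies on chromosome 7 from 4751792 to 4753094 (mm10). It was listed at 0 in both TβRII-/- libraries, against 5.66 FPKM without serum and 6.62 FPKM with serum in the TβRII fl/fl libraries, and no fold is given against a value of 0. An exact 0 in such tables can be a failed estimate, and this was not tested. In TβRII fl/fl cells the isoform made up 1.27% of the Cox6b1 and Cox6b2 sum without serum and 1.33% with serum. Cox6b1 was at 499 FPKM in the TβRII-/- and 440 FPKM in the TβRII fl/fl library without serum (0.18), and at 543 FPKM in TβRII-/- against 490 FPKM in TβRII fl/fl with serum (0.15). The difference in Cox6b2 was thus small beside the level of the common isoform.

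Cox7a1 and Cox6a2, the heart and skeletal muscle isoforms of their subunits, were higher in TβRII-/- cells without serum. Cox7a1 was at 5.25 FPKM in the TβRII-/- and 1.14 FPKM in the TβRII fl/fl library without serum (1.55), and at 3.32 FPKM in TβRII-/- against 2.81 FPKM in TβRII fl/fl with serum (0.18). It made up 2.89% of the Cox7a2 and Cox7a1 sum in TβRII-/- against 0.881% in TβRII fl/fl without serum, and 1.76% in TβRII-/- against 2.44% in TβRII fl/fl with serum, so that the order of the shares differed between media. Cox7a2, the common form, was at 176 FPKM in the TβRII-/- and 128 FPKM in the TβRII fl/fl library without serum (0.46), and at 185 FPKM in TβRII-/- against 112 FPKM in TβRII fl/fl with serum (0.71). Cox6a2 was at 2.48 FPKM in the TβRII-/- and 0.444 FPKM in the TβRII fl/fl library without serum (1.27) and was listed at 0 in both libraries with serum. Its table region is 74.5 times the RefSeq gene and is the same region that the table gives to Itgad. Cox6a1 was at 407 FPKM in the TβRII-/- and 414 FPKM in the TβRII fl/fl library without serum, so that Cox6a2 stayed under 1% of the pair.

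**Figure D2:**
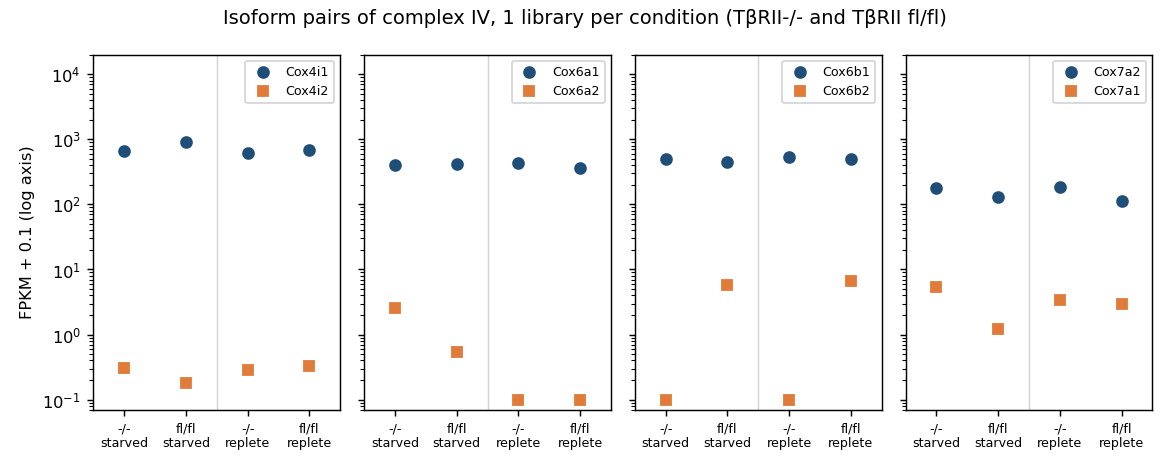
FPKM plus 0.1 on a log axis for 4 pairs of complex IV isoforms, with TβRII-/- left of TβRII fl/fl in each medium and 1 point per library. The common isoforms (circles) lie above 100 FPKM in every library, and the tissue-restricted ones (squares) lie under 7 FPKM, with Cox6b2 at 0 in both TβRII-/- libraries.

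Complex V, the ATP synthase, had a median of -0.066 without serum, with 4 of 15 genes above 0, and 0.168 with serum, with 13 of 15 above 0. Atp5b had a log2 ratio of -0.06 without serum and of 0.50 with serum. Atp5f1, which encodes a stator subunit, was highest with serum, at 176 FPKM in the TβRII-/- and 113 FPKM in the TβRII fl/fl library (0.64), and was at 148 FPKM in TβRII-/- against 121 FPKM in TβRII fl/fl without serum (0.29). Atp5l was highest without serum, at 68.9 FPKM in the TβRII-/- and 47.2 FPKM in the TβRII fl/fl library (0.54), and was at 60.6 FPKM in TβRII-/- against 48.8 FPKM in TβRII fl/fl with serum (0.31). Atp5o, the stator subunit that confers oligomycin sensitivity, was lowest without serum, at 205 FPKM in the TβRII-/- and 325 FPKM in the TβRII fl/fl library (-0.66), and was at 284 FPKM in TβRII-/- against 300.3 FPKM in TβRII fl/fl with serum (-0.08). Its locus is joined with Donson. Atp5j was at 389 FPKM in the TβRII-/- and 491 FPKM in the TβRII fl/fl library without serum (-0.33) and at 405 FPKM in TβRII-/- against 516 FPKM in TβRII fl/fl with serum (-0.35), the lowest of the complex in that medium.

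The c ring of complex V is made from 3 genes that encode the same mature protein. Atp5g3 supplied most of their message, with 67.3% of the sum in TβRII-/- and 62.4% in TβRII fl/fl cells without serum, and 61.4% in TβRII-/- against 59.1% in TβRII fl/fl with serum. Atp5g2 was at 127 FPKM in the TβRII-/- and 193 FPKM in the TβRII fl/fl library without serum (-0.60), and at 226 FPKM in TβRII-/- against 201 FPKM in TβRII fl/fl with serum (0.16). Atp5g1 was at 82.8 FPKM in the TβRII-/- and 81.9 FPKM in the TβRII fl/fl library without serum (0.02), and at 101 FPKM in TβRII-/- against 74.7 FPKM in TβRII fl/fl with serum (0.43). The share of Atp5g2 was 19.8% in TβRII-/- against 26.4% in TβRII fl/fl without serum, and 26.7% in TβRII-/- against 29.9% in TβRII fl/fl with serum. Of the 2 genes matched by name only, Atp5s was at 9.19 FPKM in the TβRII-/- and 9.22 FPKM in the TβRII fl/fl library without serum, and Atp5sl at 11.8 FPKM in TβRII-/- against 16.7 FPKM in TβRII fl/fl (-0.47).

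The ratios of the 2 media were set side by side for the 87 genes that passed in both. The ratio without serum was below that with serum for 66 of the 87 genes, beside 5012 of 12162 loci. The median difference was -0.189 for these genes, whereas over all loci it was 0.103. By complex the median difference was -0.117 for complex I, -0.201 for II, -0.253 for III, -0.114 for IV, -0.360 for V and -0.293 for the assembly factors. In 26 of the 87 genes the ratio was below 0 without serum and above 0 with serum, beside 1745 of 12162 loci. In 6 genes it was the reverse, beside 2222 loci. Both ratios were within 1.5-fold for 72 of the 87 genes (82.8%), compared with 54.0% of 12162 loci. The ratio had the same sign in both media for 55 of the 87 genes (63.2%), compared with 67.4% of all loci. The rank correlation between media was 0.567 over these genes and 0.511 over all loci, a description of genes in 4 libraries from the same populations.

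**Figure D3:**
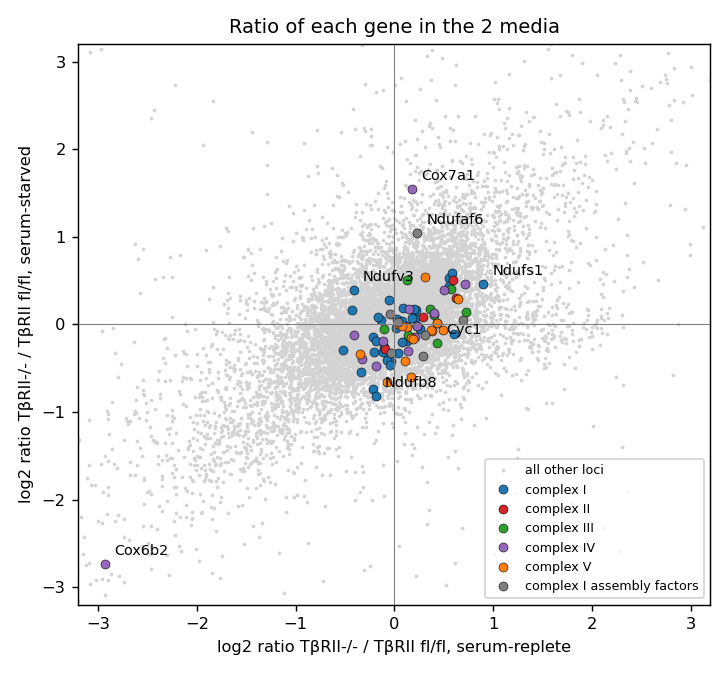
Log2 ratio of TβRII-/- to TβRII fl/fl in serum-replete (x) and serum-starved medium (y) for 85 genes of the complexes and complex I assembly factors (colored) and 12075 other loci (grey), of which 243 lie outside the axes. The respiratory genes form a compact group within about 1 of the origin, and Cox6b2, whose position depends on the added 1 FPKM, and Cox7a1 and Ndufaf6 lie apart.

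Other genes of the pathway gave context for these values. The 13 genes of mitochondrial DNA, held in 10 loci, had a median log2 ratio of -0.375 without serum, with 9 of 10 loci below 0, and of 0.005 with serum. None of the 10 reached 2-fold. The nuclear subunits, at -0.027, did not share that lower median without serum. Assembly factors of complexes II to V (34 genes) had medians of -0.088 and -0.077 with none past 2-fold. Genes of cytochrome c, the ATP synthase inhibitor and coenzyme Q synthesis (15 genes) had medians of -0.042 and 0.074, with Adck3 (also called Coq8a) alone past 2-fold, at 1.09 FPKM in the TβRII-/- and 3.36 FPKM in the TβRII fl/fl library with serum.

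Of 15 expressed regulators of mitochondrial biogenesis, 14 lay below 0 without serum (median -0.167) and 7 with serum (median 0.011). Of all loci, 6075 of 12687 lay below 0 without serum and 6583 of 12635 with serum. Esrra, the estrogen-related receptor that drives respiratory genes with Ppargc1a, was at 16.0 FPKM in the TβRII-/- and 16.7 FPKM in the TβRII fl/fl library without serum, and at 12.5 FPKM in TβRII-/- against 32.6 FPKM in TβRII fl/fl with serum (-1.31). Myc, which promotes ribosome and mitochondrial gene expression, was at 46.5 FPKM in the TβRII-/- and 95.5 FPKM in the TβRII fl/fl library without serum (-1.02), and at 42.0 FPKM in TβRII-/- against 71.8 FPKM in TβRII fl/fl with serum (-0.76).

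The glycolysis list had a larger median and more genes past 2-fold than the respiratory genes without serum. Without serum 10 of 15 glycolytic genes were higher by 2-fold or more in the TβRII-/- library and none lower, beside 8.02% and 6.64% of all loci. The median was 1.16. With serum 1 was higher and 1 lower, beside 7% and 11.1% of all loci, with a median of 0.26. Pfkl, Ldha, Pkm and Eno1 had the highest ratios of this list without serum (1.78, 1.73, 1.68 and 1.47), and Ldha, which reduces pyruvate to lactate, was at 786 FPKM in the TβRII-/- and 236 FPKM in the TβRII fl/fl library. Pdk1, the kinase that inactivates pyruvate dehydrogenase, was at 52.9 FPKM in the TβRII-/- and 10.5 FPKM in the TβRII fl/fl library without serum (2.23), and at 7.96 FPKM in TβRII-/- against 9.57 FPKM in TβRII fl/fl with serum (-0.24). Pdk2 was lower in both media (-1.23 and -1.59), and Idh3a, a citric acid cycle enzyme, was at 84.6 FPKM in the TβRII-/- and 36.3 FPKM in the TβRII fl/fl library with serum (1.20). The citric acid cycle list as a whole had medians of -0.132 and 0.206 over 22 genes.

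Ribosomal protein genes shared with the respiratory genes the sign of the shift between media. Their levels differed. Without serum the median of expressed respiratory genes was 120 FPKM in TβRII-/- against 117 FPKM in TβRII fl/fl. That of the cytosolic ribosome list was 373 FPKM in TβRII-/- against 497 FPKM in TβRII fl/fl, and that of the mitochondrial ribosome list 33.9 FPKM against 39.4 FPKM. The 76 mitochondrial ribosome genes had medians of -0.094 without serum and 0.191 with serum. Those past 2-fold were Mrps6, whose locus is joined with Slc5a3, in both media (-1.21 and -1.07) and Mrpl36 with serum (-1.56). The 82 expressed cytosolic ribosome genes had medians of -0.36 and 0.36, with 73 below 0 without serum and 77 above 0 with serum. Past 2-fold among them were Rpl22l1 without serum (-1.13) and Rps4y2, at 0.0516 FPKM in the TβRII-/- and 24.4 FPKM in the TβRII fl/fl library with serum and listed at 0 in TβRII-/- against 16.9 FPKM in TβRII fl/fl without serum. The lower ratio without serum than with serum was therefore found in the respiratory genes and in both ribosome lists. It was also found in the medians of mitochondrial DNA genes (-0.375 and 0.005) and the citric acid cycle list (-0.132 and 0.206). The same held for biogenesis regulators (-0.167 and 0.011) and the cytochrome c and coenzyme Q list (-0.042 and 0.074). Assembly factors of complexes II to V differed little (-0.088 and -0.077), and glycolysis went the other way (1.16 and 0.26). Whether transcript length, abundance or library scaling takes part in this difference was not tested beyond the alternatives given under processing. With genes whose longest transcript is under 800 bp left out, the median of the respiratory genes was -0.065 without serum and 0.128 with serum.

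**Figure D4:**
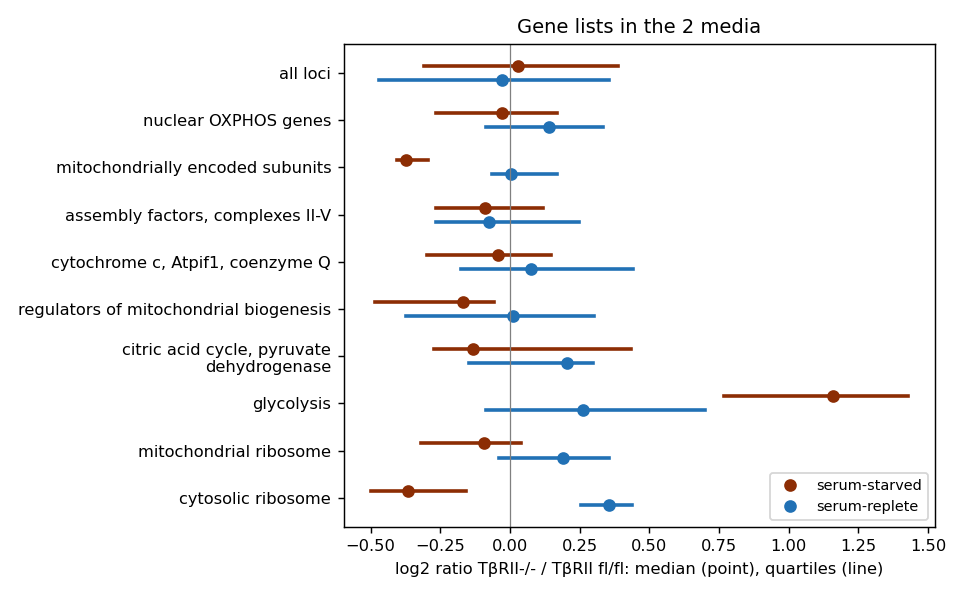
Median (point) and quartiles (line) of the log2 ratio of TβRII-/- to TβRII fl/fl without serum and with serum for the respiratory genes, related lists and all loci. The glycolysis list lies apart without serum with a median of 1.16, and the cytosolic ribosome list lies on opposite sides of 0 in the 2 media.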

How the data were processed

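RNA-Seq of IMCD cells was analyzed from gene tables of 4 libraries, 1 per condition, with 30000000 reads of 50 bp per the labels. The genome build was mm10, and TopHat2, Cufflinks and Cuffdiff are listed in the submitters' processing notes. Their versions, the annotation and how reads shared with pseudogenes or paralogs were handled were not given in the sources used here, and values of genes with near-identical copies are uncertain for that reason. The authors deposited FPKM, scaled by Cuffdiff separately for each medium, so that genotypes were compared within a medium and levels across media only stand side by side. The tables also hold the authors' fold changes, p-values and q-values, which were not used. The depth of each library is unknown beyond the labels, since between 56.4% and 65.6% of low values lay within 10% of a whole read, too few to recover reads. In each library mt-Ts1 took 17.1% to 21.8% of the FPKM sum.

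Log2 ratios used a pseudocount of 1 FPKM, which understates the change of low genes, and a filter of 1 FPKM in either library, and 2-fold was read as higher or lower. With 1 library per condition no test was run. The calculation was run on simulated data (Python 3.11.15, pandas 2.3.3). The planted changes were well past 2-fold and the added noise was small. That run therefore checks the code only and does not measure the error of calls in the real libraries. Members, gene lists and motifs were chosen with earlier results of these data known. Genes named are Tgfbr2, members past 2-fold, the most abundant and the highest and lowest ratios of each complex, isoform sets, and in each pathway list up to 4 genes past 2-fold. Ndufv3, Ndufs8, Ndufv1, Ndufb3, Ndufb4, Ndufb6, Uqcrh, Sdha, Nrf1, Gabpa and genes past 1.5-fold were named after their values were seen. Alternatives tried were pseudocounts of 0.1 and 0.5, no filter, filters of 5 and 50 FPKM, centering on the median, a common sum, leaving out joined loci, loci over 2 times the RefSeq span or transcripts under 800 bp, and means. The filter of 50 FPKM and the span limit were chosen after seeing the data. Of the 94 members, 3 lie in joined loci, 17 in loci over 2 times the RefSeq gene, and 29 have transcripts under 800 bp.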

Additional observations from a re-analysis of the deposited data

Results flagged for a closer look

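Genes or lists whose log2 ratio of TβRII-/- to TβRII fl/fl was at least 0.2 in size and of opposite sign in the 2 media are listed here. With 1 library per condition, none of these differences was tested. Cyc1 had -0.22 without serum and 0.43 with serum. Ndufv3, an accessory subunit of complex I, had 0.39 and -0.41, with 144 FPKM in the TβRII-/- and 110 FPKM in the TβRII fl/fl library without serum, and 80.1 FPKM in TβRII-/- against 107 FPKM in TβRII fl/fl with serum. Ndufaf5, an assembly factor of complex I, had -0.36 and 0.29, with 8.97 FPKM in the TβRII-/- and 11.8 FPKM in the TβRII fl/fl library without serum, and 14.2 FPKM in TβRII-/- against 11.4 FPKM in TβRII fl/fl with serum. The median of the cytosolic ribosome list was -0.36 without serum and 0.36 with serum.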

How the results depend on the processing

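No paired analysis was possible because each condition is 1 library. The number of respiratory genes past 2-fold, 4 without serum and 1 with serum, was 1 and 0 with transcripts of at least 800 bp, since 29 members have shorter ones, and 0 in both media among genes with at least 50 FPKM. At 1.5-fold, the 8 genes without serum became 4 with transcripts of at least 800 bp, 3 with at least 50 FPKM, and 5 without loci over 2 times the RefSeq span, which leaves out genes. The median over members stayed below 0 without serum (-0.117 to -0.021) and above 0 with serum (0.105 to 0.169) under each alternative run. The median difference between media ranged between -0.283 and -0.153. Of the 6 group medians, that of complex IV turned sign with serum (-0.117 with transcripts of at least 800 bp, -0.111 as a mean). The mean includes Cox6b2 at -2.93, which depends on the added 1 FPKM. The median of the complex I assembly factors without serum was -0.055 with a common sum. That of complex I with serum was -0.006 with at least 50 FPKM. Without serum and with transcripts of at least 800 bp, the medians were -0.154 for complex I and -0.193 for complex IV, further from 0. Ndufaf6 fell under 2-fold with a common sum (0.97). Other named genes kept their side of 2-fold wherever they passed the filter. Low values carry few reads, so that Cox6b2, Cox6a2, Cox7a1 and Cox4i2 are the least certain.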
